A study of Mus musculus with 24 samples.

Results

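Chronic mild stress (CMS) was compared with control housing in the cerebral cortex of mice, and the comparison was made across every probe set of the array except the Affymetrix controls. The members were the 6 arrays that the labels assign to the cerebral cortex, 3 from CMS mice and 3 from control mice, of 24 arrays in all. All mice were wild-type C57BL/6 males, and the labels give an age of 6 to 8 weeks. The CMS group met unpredictable stressors, in the same sequence for every mouse, on 6 days a week for 4 weeks, and the control group was kept without them. The other 18 arrays came from the prefrontal cortex, amygdala and hippocampus and are used where the cerebral cortex is set against them. The results of the study speak of independent mice while its methods name pooled RNA, and the p-values may thus measure only the spread between these arrays. The dissected cerebral cortex was a block of tissue, and the sources used here do not state its borders.

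The cerebral cortex is a layered sheet of glutamatergic projection neurons and GABAergic interneurons with glia, vessels and a covering of meninges. Neurons that fire or receive strong synaptic input switch on immediate early genes within minutes, without new protein synthesis, and several of these genes encode transcription factors that act on later genes. The striatum lies under the cortex and is made of medium spiny neurons that respond to dopamine, and the choroid plexus is the epithelium in the ventricles that secretes cerebrospinal fluid. In tissue RNA of this kind, fewer cells of a type and less RNA per cell cannot be told apart.

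The values are log2 values that the authors centred, so that 0 is the median of a probe set over the 24 arrays and only differences between arrays can be read. Probe sets of 1 gene were averaged, and 18193 genes were measured by 34945 of the 45037 probe sets tested. Genes were called where the fold change was over 2, which is 1 on the log2 scale, and the limma p adjusted by Benjamini-Hochberg over all genes was under 0.05. The label was checked against marker lists. The 15 measured genes of layers 2 to 4 had mean values between 0.41 and 0.60 on the 6 cerebral cortex arrays, above the 0.16 to 0.35 of the prefrontal cortex and the -0.80 to -0.56 of the hippocampus. Layers 5 and 6 overlapped with the prefrontal cortex, at 0.01 to 0.10 against -0.01 to 0.13, and lay above the hippocampus at -0.73 to -0.52. The list of projection neurons in all layers did not set the cerebral cortex (0.20 to 0.26) apart from the control hippocampus (0.21 to 0.31). The 11 genes of the hippocampal fields lay between -0.39 and -0.29, against 3.11 to 3.54 in the hippocampus itself.

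The CMS arrays correlated with each other at a Pearson r of 0.818 to 0.825 across probe sets. Control replicates 1 and 2 correlated at 0.837, but control replicate 3 reached only 0.690 with either of them, so leading counts are given without this array too. Control probe sets outside the tested set also differed between the groups. The 5′ probe set for β-actin stood at 0.89, 1.02 and 1.02 on the CMS arrays and at -0.43, -0.47 and -0.65 on the control arrays, while its 3′ probe set differed less, by 0.89 on the log2 scale. The poly-A controls, bacterial RNAs spiked in before labelling, had means of 0.04 ± 0.03 (SD, n = 3) with CMS and 0.49 ± 0.23 (SD, n = 3) in controls. The part of these differences in the results that follow was not tested.

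Few genes differed between CMS and control cortex by the fold needed for a call. Of the 18193 genes, 65 were called, which is 0.357%, with 35 higher (0.192%) and 30 lower (0.165%) in CMS. At an adjusted p under 0.05 alone, 9.94% of genes differed, with 1083 higher (5.95%) and 726 lower (3.99%), and the median log2 fold change of all genes was -0.03. The 30 genes called lower were led by transcripts of the choroid plexus epithelium and by immediate early genes, and 21 of them belonged to 1 of the 32 lists examined. Among the 35 called higher were transcripts of striatal neurons and the calprotectin pair S100a8 and S100a9, and 15 belonged to a list. The lists were chosen with earlier results of these data known. These counts and those given for each list below are thus no independent evidence. Of the 65 calls, 46 were kept whichever 1 of the 6 arrays was left out, and without control replicate 3 the counts were 29 higher and 34 lower. Counts at an adjusted p alone moved more. Over all genes, leaving out 1 array gave 444 to 1042 higher (2.44% to 5.73%) and 192 to 1054 lower (1.06% to 5.79%). Of the 182 list genes that passed this threshold, 97 passed whichever array was left out, and the number that did so is given for each list. CMS and control arrays did not overlap in 52.1% of all genes, 37.8% lower and 14.3% higher with CMS. A lack of overlap alone was thus no mark of a change. At an adjusted p alone, median centring of the arrays gave 967 genes higher (5.32%) and 378 lower (2.08%). Quantile normalization gave 1168 higher (6.42%) and 870 lower (4.78%), so the number of lower genes depended on the scaling.

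**Figure D1:**
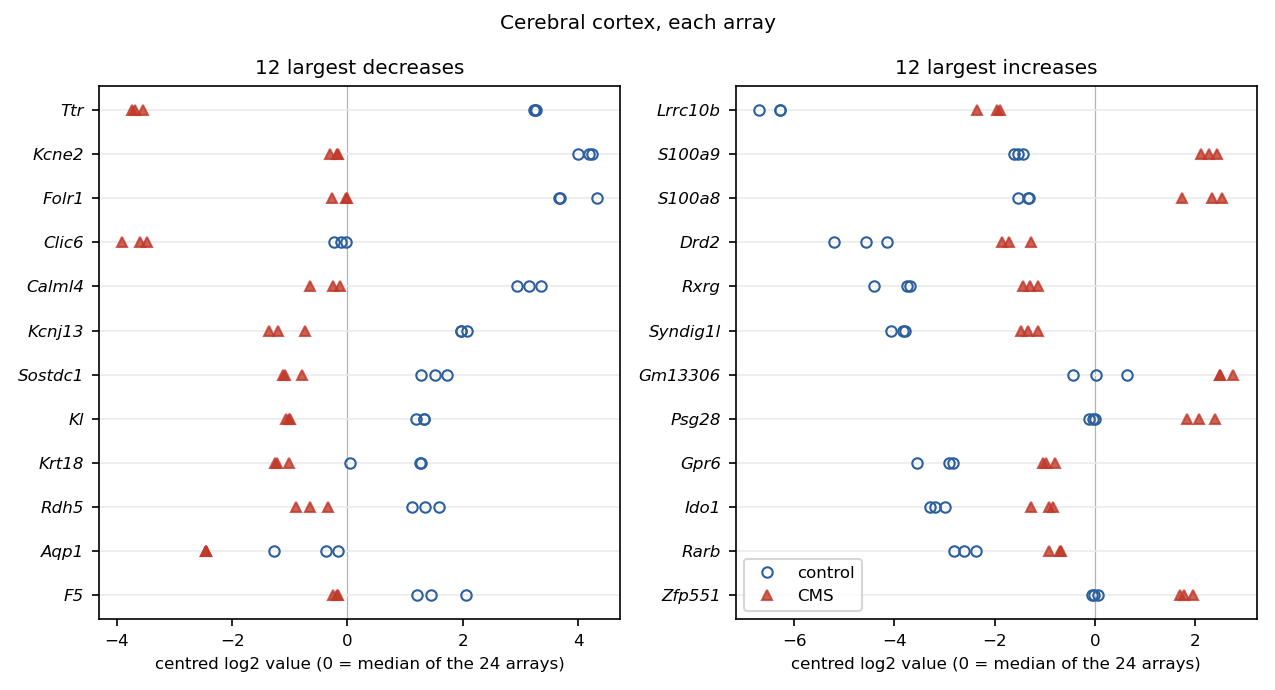
Centred log2 values of the 12 genes with the largest decreases (left) and the 12 with the largest increases (right) in the cerebral cortex, with 1 triangle for each of 3 CMS arrays and 1 circle for each of 3 control arrays. Ttr lies between -3.73 and -3.54 on the CMS arrays and between 3.24 and 3.26 on the control arrays, and Lrrc10b lies near -2 with CMS and below -6 in controls.

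Immediate early genes were lower in the CMS cortex. Of the 40 listed, all measured, 24 were lower at an adjusted p under 0.05 and 1 was higher, against 3.99% and 5.95% of all genes, and 7 were called lower and 0 higher. Their median log2 fold change was -0.41, and the mean over the list lay between 0.10 and 0.13 on the CMS arrays and between 0.56 and 0.67 on the control arrays. Without control replicate 3, 24 were lower, 23 of them among the first 24, 0 were higher and 8 were called. Between 16 and 24 were lower as each array was left out, and 16 of the 24 passed every time.

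The upstream sequences of 3 of the called genes are shown because several immediate early genes are switched on through the cyclic AMP response element (CRE) or the CArG box, the site of serum response factor. They are the 250 bases before the start site, from RefSeq on build GRCm38.p6, with the CRE core TGACGT on either strand (ACGTCA when read on the other) and the CArG box in capitals. Fos is at chr12:85473640-85473889 on the plus strand, Npas4 at chr19:4989972-4990221 on the minus strand and Egr2 at chr10:67537619-67537868 on the plus strand.
Fos: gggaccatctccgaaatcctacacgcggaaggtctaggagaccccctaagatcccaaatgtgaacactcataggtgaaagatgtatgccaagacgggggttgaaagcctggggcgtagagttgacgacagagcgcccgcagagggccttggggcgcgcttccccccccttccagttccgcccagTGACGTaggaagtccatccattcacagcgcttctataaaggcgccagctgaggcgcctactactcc
Npas4: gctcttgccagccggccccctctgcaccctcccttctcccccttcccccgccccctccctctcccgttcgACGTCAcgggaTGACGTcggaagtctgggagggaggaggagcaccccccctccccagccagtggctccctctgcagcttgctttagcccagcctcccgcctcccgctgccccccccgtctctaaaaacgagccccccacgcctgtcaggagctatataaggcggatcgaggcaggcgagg
Egr2: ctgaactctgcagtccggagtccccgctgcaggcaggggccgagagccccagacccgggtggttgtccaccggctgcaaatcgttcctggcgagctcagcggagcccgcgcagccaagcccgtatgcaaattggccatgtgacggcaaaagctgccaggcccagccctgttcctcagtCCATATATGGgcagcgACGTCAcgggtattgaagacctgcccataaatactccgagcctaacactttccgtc
The CRE core begins 66 bases before the start site in Fos, and 180 and 169 bases before it in Npas4. In this Egr2 window, 1 of 5 listed for the gene, a CArG box begins 72 bases and a CRE core 56 bases before the start. The Egr2 window that begins at chr10:67535249 holds neither, and that at chr10:67537316 holds a CArG box only. The remaining Egr2 windows overlap the one shown and hold both. Of the 24 immediate early genes that were lower, 17 had a window in the table, and 8 of these held the CRE core in at least 1 window, against 9.63% of the 14452 measured genes with a window. The CArG box was found in 2 of the 17, against 1.43%, and the full CRE TGACGTCA, which contains the core on both strands, in 2 of the 17, against 2.5%. Windows for Fosb and Nr4a1 held neither the core nor the CArG box in these letters. A match describes the letters only and shows no binding.

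The AP-1 subunits Fos and Fosb, which pair with Jun proteins to bind DNA, were both called. Fosb stood at -0.42, -0.21 and 0.03 on the CMS arrays and at 1.79, 1.53 and 1.38 on the control arrays, or -1.77 ± 0.15 (SE) as a log2 fold change (limma adjusted p = 0.00454). Fos, with the core shown above, was at 0.31, 0.38 and 0.28 with CMS and at 1.48, 1.42 and 1.46 in controls, a fall of 1.13 ± 0.03 (SE) on the log2 scale (adjusted p = 0.000362). For both genes every control array lay above every CMS array by at least the fold used for a call. Their partners Junb and Jun were lower by less than the fold needed, at log2 fold changes of -0.91 (adjusted p = 0.0245) and -0.42 (adjusted p = 0.00266), and Junb lost its adjusted p under 0.05 without any 1 array except control replicate 3 (up to 0.0843).

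Arc encodes a synaptic protein that takes AMPA receptors from the membrane. It had values of 0.07, 0.12 and 0.17 on the CMS arrays and 1.89, 1.87 and 1.73 on the control arrays, a difference of -1.71 ± 0.05 (SE) with an adjusted p of 0.000362. Npas4, a transcription factor that depends on calcium entry, was at -0.24, 0.11 and 0.02 with CMS and at 1.26, 1.06 and 0.99 in controls, a difference of -1.14 ± 0.11 (SE) with an adjusted p of 0.00644. The zinc finger factor Egr2 was at 0.94, 0.77 and 0.88 against 2.00, 1.95 and 2.03, and both of its probe sets were called lower. Its relatives Egr1 and Egr3 had smaller log2 fold changes of -0.41 and -0.34, with adjusted p values of 0.00225 and 0.006. The 2 probe sets of Egr3 gave -0.66 and -0.01.

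The orphan nuclear receptor Nr4a1 had the smallest standard error of the called members, with 0.18, 0.22 and 0.18 against 1.30, 1.32 and 1.31 (log2 fold change -1.12, SE 0.02, adjusted p = 7.65e-05). Ier2, a nuclear protein induced by growth factors, was at 0.61, 0.53 and 0.38 with CMS and at 1.86, 1.90 and 1.52 in controls. Dusp1 and Dusp5, phosphatases that switch off MAP kinases, were lower at log2 fold changes of -0.84 and -0.85 but were not called. Ier3 was the 1 member that was higher, at 0.32 (adjusted p = 0.0387), but of the 6 fits with 1 array left out it passed only in that without CMS replicate 1 (adjusted p up to 0.124). Homer1 at 0.04 and Plk2 at 0.01 did not pass the test. The 7 called members kept their calls whichever array was left out.

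**Figure D2:**
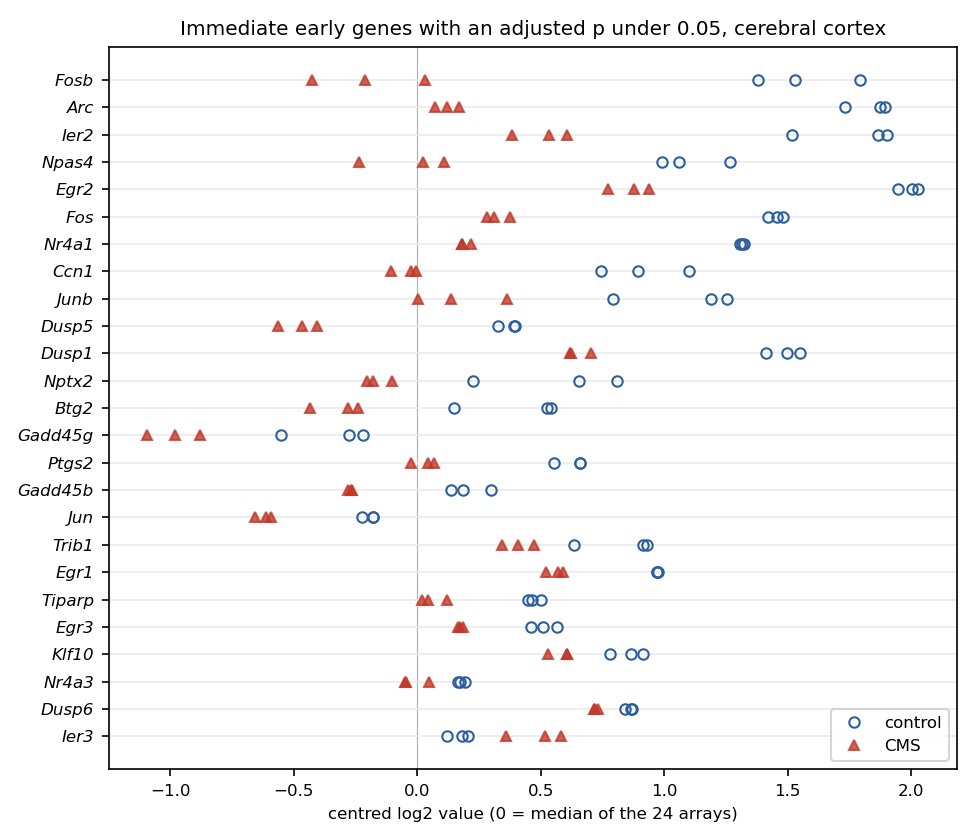
Centred log2 values of the 25 immediate early genes with an adjusted p under 0.05 in the cerebral cortex, with triangles for the 3 CMS arrays and circles for the 3 control arrays, sorted by fold change. CMS arrays lie to the left of the control arrays in the upper 24 genes, and Ier3 at the bottom, which passed less firmly, runs the other way.

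Genes of the choroid plexus had the largest decreases. Of 24 listed, 22 were measured. At an adjusted p under 0.05, 16 were lower and 0 higher, against 3.99% and 5.95% of all genes, and 13 were called. The median log2 fold change was -1.66. The mean over the list was -0.76 to -0.73 on the CMS arrays and 1.16 to 1.29 on the control arrays, and without control replicate 3 the counts were again 16 and 13. Of the 16, 14 passed whichever array was left out. Of the 12 largest decreases of all genes, 10 were on this list. Rdh5 and Krt18 were not. The list was chosen with earlier results of these data known, so its counts and this overlap are no independent evidence.

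Ttr encodes transthyretin, the carrier of thyroxine and of retinol-binding protein that the choroid plexus secretes into cerebrospinal fluid. Its mean was -3.73, -3.69 and -3.54 on the CMS arrays and 3.26, 3.24 and 3.26 on the control arrays. The log2 fold change was -6.91 (SE 0.05, adjusted p = 1.37e-06), the largest of any gene in the cerebral cortex, and its 4 probe sets gave values between -7.22 and -6.57.

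Transporters and channels of the same epithelium moved the same way. The potassium channel subunit Kcne2 was at -0.17, -0.18 and -0.30 with CMS and at 4.24, 4.19 and 4.00 in controls (log2 fold change -4.36, SE 0.07, adjusted p = 5.37e-05). Folr1, the folate receptor that carries folate into the cerebrospinal fluid, was at -0.02, -0.03 and -0.27 against 3.69, 4.32 and 3.67. For both genes the CMS arrays were close to the median of the 24 arrays and the control arrays were far above it. Clic6, of the chloride intracellular channel family, gave -3.60, -3.48 and -3.90 against -0.02, -0.12 and -0.24, and here the CMS arrays were far below the median. The inward rectifier Kcnj13 fell by 3.10 ± 0.16 (SE) and the calmodulin-like gene Calml4 by 3.49 ± 0.17 (SE) on the log2 scale.

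Secreted and membrane proteins followed. The co-receptor of fibroblast growth factor 23, Kl, was at -1.003, -1.06 and -1.02 with CMS and at 1.32, 1.32 and 1.19 in controls, yet the change came from 1 of its 2 probe sets, at -4.58, while the other gave -0.03. Sostdc1, a secreted antagonist of BMP and Wnt signals, had a log2 fold change of -2.51 (adjusted p = 0.0015). The coagulation factor F5 was at -0.18, -0.25 and -0.16 against 2.06, 1.45 and 1.21, and its call was lost with the methods' t-test (log2 fold change -1.77).

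The water channel Aqp1 was at -2.44, -2.45 and -2.45 with CMS and at -0.37, -1.27 and -0.17 in controls. Its call (log2 fold change -1.84, adjusted p = 0.021) was lost when any 1 of the CMS arrays or control replicate 1 was left out, with an adjusted p of up to 0.0733. Krt18, a keratin of simple epithelia, was called at -2.02 (adjusted p = 0.0268), but its control arrays were at 1.27, 1.25 and 0.05, and the call was lost without any 1 array except control replicate 3, at an adjusted p of up to 0.0925. Rdh5, a retinol dehydrogenase, kept its call at -1.98 (SE 0.18, adjusted p = 0.00524). Members with little signal of change were Trpv4 and Lmx1a, both at -0.03, and Tmem72 at -0.06.

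The order of the areas places these values. The mean over the choroid plexus list was 1.87 ± 0.05 (SD, n = 3) in the control hippocampus and 2.07 ± 0.01 (SD, n = 3) in the CMS hippocampus, above the control cerebral cortex at 1.22 ± 0.06. The control prefrontal cortex at 0.10 ± 0.02, the control amygdala at -0.33 ± 0.02, the CMS amygdala at -0.45 ± 0.02 and the CMS prefrontal cortex at -0.50 ± 0.01 came next, and the CMS cerebral cortex was lowest at -0.74 ± 0.02. Kcne2 had means of 5.27 and 5.20 in the control and CMS hippocampus and of 0.29 and -0.10 in the control and CMS prefrontal cortex, so that the control cerebral cortex at 4.14 lay near the hippocampus and the CMS cerebral cortex at -0.21 lay near the other areas. The median log2 fold change of the list was -0.16 in the prefrontal cortex, 0.04 in the amygdala and 0.13 in the hippocampus.

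**Figure D3:**
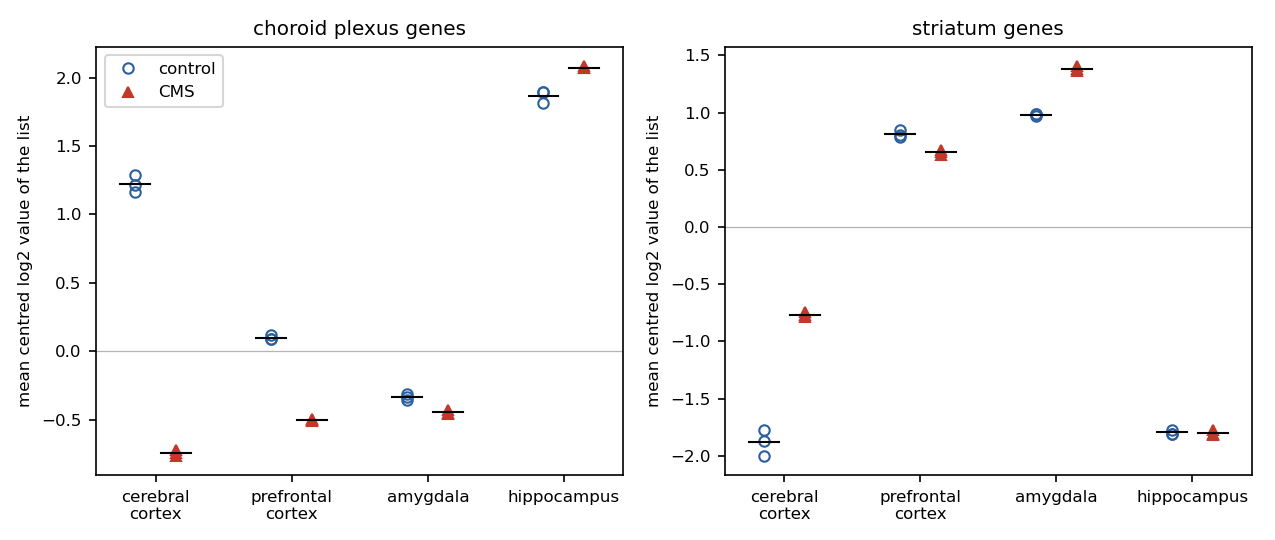
Mean centred log2 value of the 22 measured choroid plexus genes (left) and the 28 measured striatum genes (right) on each of the 24 arrays, by brain area, with circles for control, triangles for CMS and a black line at the mean of 3 arrays. In the cerebral cortex the choroid plexus mean goes from 1.22 in controls to -0.74 with CMS and the striatum mean from -1.88 to -0.77.

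Striatal genes were higher in the CMS cortex. Of 30 listed, 28 were measured. At an adjusted p under 0.05, 20 were higher and 0 lower, against 5.95% and 3.99% of all genes, and 10 were called. The median log2 fold change was 0.75, and the mean over the list was -0.79 to -0.74 on the CMS arrays and -1.997 to -1.78 on the control arrays. Without control replicate 3, 19 were higher and 10 called, and the median was 0.63. Of the 20, 17 passed whichever array was left out. This list too was chosen with earlier results known, so its counts are no independent evidence.

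Lrrc10b, a leucine-rich repeat gene enriched in medium spiny neurons, had the largest increase of any gene. It was at -1.95, -1.89 and -2.35 on the CMS arrays and at -6.28, -6.27 and -6.70 on the control arrays, a difference of 4.35 ± 0.17 (SE) with an adjusted p of 0.000805. Both groups were thus below the median of the 24 arrays. Drd2, the dopamine receptor of the indirect striatal pathway, was at -1.28, -1.85 and -1.72 with CMS and at -4.15, -4.56 and -5.20 in controls (log2 fold change 3.02, SE 0.30, adjusted p = 0.00637). Drd1, the receptor of the direct pathway, rose by 1.34 ± 0.09 (SE), from -1.99, -1.97 and -2.29 to -0.81, -0.73 and -0.70, and both of its probe sets were called.

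The retinoid receptors Rxrg and Rarb, which act in striatal development, rose by 2.66 ± 0.21 and 1.83 ± 0.13 (SE) on the log2 scale. Syndig1l, a relative of a synapse differentiation gene, rose by 2.58 ± 0.12, and Gpr6, an orphan receptor of indirect pathway neurons, by 2.15 ± 0.21. The enkephalin precursor Penk was at -1.15, -1.11 and -1.02 with CMS and at -2.57, -2.61 and -2.75 in controls, and the striatal phosphodiesterase Pde10a was at -0.32, -0.44 and -0.55 against -2.06, -2.01 and -2.03. Ppp1r1b, which encodes the dopamine-regulated phosphatase inhibitor DARPP-32, was called at 1.09 (adjusted p = 0.00279). Markers of the list that did not pass the test included Pdyn at 0.07, Drd3 at -0.02 and Six3 at 0.11.

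Across the areas, the CMS cerebral cortex lay between the areas with low and high striatal values. The list mean was -1.88 ± 0.11 (SD, n = 3) in the control cerebral cortex, close to the hippocampus at -1.79 ± 0.02 in controls and -1.80 ± 0.02 with CMS. It was -0.77 ± 0.02 in the CMS cerebral cortex, and between 0.65 and 1.38 in the groups of the prefrontal cortex and amygdala. Drd2 showed this order too, at -4.64 ± 0.53 in the control and -1.62 ± 0.30 in the CMS cerebral cortex, and at 1.38 ± 0.09 and 1.91 ± 0.05 in the CMS and control prefrontal cortex. The part of the striatal and choroid plexus transcripts in the values of other genes was not tested.

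S100a8 and S100a9 encode the subunits of calprotectin, a calcium-binding protein abundant in neutrophils, and were also among the largest increases. S100a9 was at 2.43, 2.11 and 2.26 on the CMS arrays and at -1.44, -1.62 and -1.53 on the control arrays (log2 fold change 3.80, SE 0.09, adjusted p = 0.00017). S100a8 was at 2.33, 1.72 and 2.53 against -1.35, -1.32 and -1.54 (log2 fold change 3.597, SE 0.22, adjusted p = 0.00182). The other 15 measured neutrophil genes of 17 did not pass the test, and the granule proteins Ngp, Ltf and Camp had log2 fold changes of -0.02, 0.06 and -0.03 with both groups near 0. The list median was -0.03 and changed sign to 0.01 after quantile normalization. In the prefrontal cortex, where the same pair rose by 3.57 and 3.39, Ngp, Ltf and Camp were higher too, at 5.30, 4.26 and 4.02.

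Some other immune genes were higher. Of 33 interferon-stimulated and antigen presentation genes, 8 were higher at an adjusted p under 0.05 and 0 were lower. The shares of all genes were 5.95% and 3.99%. Of the 33, 0 were called, and their median was 0.10. Ifitm3, which blocks virus entry at membranes, was at -0.03, -0.09 and -0.07 with CMS and at -0.93, -0.94 and -1.10 in controls (log2 fold change 0.93, adjusted p = 0.0015). Ifitm3 and the antigen presentation subunit B2m, at 0.50, were among the 4 of the 8 that passed whichever array was left out. Of 23 NF-kB and cytokine genes, 1 was lower, the inhibitor Nfkbia at -0.40 (adjusted p = 0.00815), and 0 were higher. Outside the lists, Lyz2, the lysozyme of myeloid cells, was called at 1.59, Cd52, a surface glycoprotein of lymphocytes and monocytes, at 1.42 and the invariant chain Cd74 at 1.20. These 3 were picked after their values were seen, and the call of Cd52 was lost without CMS replicate 2 or 3 or control replicate 1 (adjusted p up to 0.0636).

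Glial and vascular lists shifted by less than the fold used for a call. The counts stand against 5.95% of all genes higher and 3.99% lower. Microglia genes were higher at an adjusted p under 0.05 in 6 of 19 cases (median 0.31), led by the adaptor Tyrobp at 0.71 and the purinergic receptor P2ry12 at 0.52, and 0 were lower. Both were among the 4 that passed whichever array was left out. The list mean lay between 0.14 and 0.19 on the CMS arrays and between -0.30 and -0.13 on the control arrays. Of 19 astrocyte genes 6 were higher (median 0.15), with the intermediate filament Gfap at 0.63 in all 3 of its probe sets (0.60 to 0.66) and the water channel Aqp4 at 0.88, whose probe sets ran from -0.03 to 1.84. Aqp4 was among the 3 of 6 that passed whichever array was left out, and Gfap reached an adjusted p of 0.0509 in 1 case. Among 21 genes of the oligodendrocyte lineage, 8 were higher (median 0.09), and 5 passed whichever array was left out, among them the myelin lipid enzyme Ugt8a at 0.69 and Ermn at 0.44.

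Of 20 genes of endothelial and mural cells, 5 were higher and 1 was lower (median 0.04), against 5.95% and 3.99% of all genes. However, 0 of these list genes passed whichever array was left out, and 0 to 4 were higher as each was. Vwf, the von Willebrand factor, was at 0.31, 0.46 and 0.16 with CMS and at -0.47, -0.68 and -1.38 in controls, and its call (1.16, adjusted p = 0.0458) was lost without any 1 of the 6 arrays, at an adjusted p of up to 0.137. Meninges and fibroblast genes were mixed, with 7 of 20 higher and 2 lower (median 0.34), and 2 and 1 of these passed whichever array was left out, with 2 to 6 higher as each was. Slc47a1, a cation exporter, was at 0.85, 0.77 and 0.87 against -0.52, -1.06 and -1.23, and Mgp, the matrix Gla protein, at 0.64, 0.58 and 0.66 against -0.61, -0.59 and -0.67, and both were called and passed every time. Of 14 ependymal genes, 3 were higher, of which Meig1 at 0.21 passed whichever array was left out. Of 8 measured erythroid genes, Alas2 had a log2 fold change of 0.96 (adjusted p = 0.0436) that did not pass without any 1 of the arrays (adjusted p up to 0.132).

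Neuronal lists of the cortex itself changed in both directions. Of all genes, 5.95% were higher and 3.99% lower at an adjusted p under 0.05. In layers 2 to 4, 3 of 15 genes were higher and 2 lower (median 0.11), with Mef2c, an activity-responsive transcription factor, at 0.63 and Rasgrf2 at 0.48. All 3 that were higher and 0 of the 2 that were lower passed whichever array was left out. In layers 5 and 6, 4 of 18 were higher and 2 lower (median near 0), with Bcl11b, a factor of subcortical projection neurons that medium spiny neurons also express, at 0.71 and Ldb2 at -0.47. These 2 were the members that passed whichever array was left out, and 1 to 4 were higher as each was. Crim1 had a mean of 0.62 from probe sets that both passed in opposite directions, at -0.44 and 1.68. Of 10 measured genes of projection neurons in all layers, Mef2c was higher and Nrgn, at -0.24, lower, the latter lost without any 1 array except control replicate 3. Of 19 interneuron genes, 4 were higher and 2 lower, and 1 of each passed whichever array was left out, with 1 higher without any of the CMS arrays. Gad2, an enzyme of GABA synthesis, was at 0.51 from probe sets at 0.00 and 1.01, and Crh, corticotropin-releasing hormone, at -0.68 (SE 0.05, adjusted p = 0.0035).

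Receptor genes of synapses changed little apart from the dopamine receptors. Of 22 glutamate receptor and transporter genes, 2 were higher and 1 was lower, shares of the same order as the 5.95% and 3.99% of all genes. Grm5, at 0.38 from probe sets at -0.09 and 0.85, passed whichever array was left out, and Gria2 and Grik4 did not. Of 11 measured GABA receptor and transporter genes 2 were higher, and Gabrb2, at 0.58 with probe sets from -0.12 to 1.68, passed every time. The 16 monoamine receptors had 2 called, Drd1 and Drd2, and Htr2c, at -0.41 (adjusted p = 0.0306), passed in only 1 of the 6 fits with 1 array left out, that without CMS replicate 1. Of 13 neurotrophin and growth factor genes, 3 were lower, namely Vgf at -0.36, Bdnf at -0.31 and Igf1 at -0.15, and 0 of these 3 passed without control replicate 3. Bdnf had probe sets at -0.61 and -0.02.

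Changes in the stress hormone lists were also small in size. For comparison, 5.95% of all genes were higher and 3.99% lower at an adjusted p under 0.05. Of 16 genes of the stress axis, the glucocorticoid receptor Nr3c1 was higher at 0.48 (adjusted p = 0.00477), with 1 of 6 probe sets called at 1.90 and the lowest at -0.19, and Crh was lower as above. Of 23 genes known to be induced by glucocorticoids, 5 were lower and 1 higher, and 4 and 1 of these passed whichever array was left out. Pdk4, which restrains glucose oxidation, was at 0.02, -0.02 and 0.05 with CMS and at 0.56, 0.42 and 0.58 in controls, Ddit4 at -0.59, -0.50 and -0.53 against -0.05, -0.07 and -0.13. Fkbp5, the chaperone that damps the receptor, was the 1 that was higher, at 0.43 (adjusted p = 0.00203), with 3 probe sets from -0.07 to 0.80. Chaperones were lower in 6 of 22 cases, and higher in 1, and 2 passed whichever array was left out, Hspa8 at -0.55 and Dnajb5 at -0.43. As each array was left out, 2 to 8 were lower. The 4 probe sets of Hspa8 ran from -1.46 to -0.12, and the 3 of Dnajb5 from -0.59 to -0.19.

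Clock genes moved in both directions. Of 16, 6 were higher at an adjusted p under 0.05 and 2 lower, against 5.95% and 3.99% of all genes. Of these clock genes, 3 and 2 passed whichever array was left out. The repressor gene Ciart was at 1.02, 1.03 and 1.07 with CMS and at 0.42, 0.55 and 0.14 in controls (log2 fold change 0.67, adjusted p = 0.0213, and up to 0.0763 with 1 array left out). Nr1d2 and Dbp, both driven by the CLOCK complex, were at 0.66 and 0.59 and passed every time. Arntl, whose protein is a part of that complex, was lower at -0.31, and Per1, which is also an immediate early gene, was lower at -0.40. The 2 probe sets of Arntl gave -0.62 and -0.01. The stressors of the CMS group included light through the night, per the methods, and its part in these values was not tested. The sources used here do not state the hour at which the mice were killed.

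The remaining lists held few or small changes. Oxidative phosphorylation genes were higher in 12 of 72 cases and lower in 0, against 5.95% and 3.99% of all genes. The changes were small in size (median 0.09, largest 0.37), and 57 of the 72 were above 0. Between 2 and 17 were higher as each array was left out, and Uqcrh and Ndufc2, both at 0.25, were the 2 that passed every time. Of 20 cholesterol synthesis genes 1 was higher and 1 lower, and Tm7sf2, at -0.41, passed whichever array was left out. Of 11 genes of the hippocampal fields 1 was lower, and of 20 genes of thalamus and habenula 2 were higher, and 0 of these 3 passed every time. Of 12 genes of olfactory and airway epithelium, 0 passed an adjusted p under 0.05 in limma and 0 had an unadjusted p under 0.05. Growth hormone, Gh, was the 1 change among 19 genes of hypothalamus and pituitary, at -0.12, -0.09 and -0.13 with CMS and at 1.72, 1.47 and 0.62 in controls, and its call (-1.38, adjusted p = 0.0417) was lost without any 1 array except control replicate 3 (adjusted p up to 0.124), after quantile normalization and after median centring.

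The study built a regulatory network from genes that changed with CMS in the amygdala, not from changes in the cerebral cortex. The network genes were chosen there on the same mice, so their direction is no independent evidence. Their median log2 fold change was 0.22 here, while amygdala arrays gave -0.33. Of 19 measured, 6 were higher and 1 lower in the cerebral cortex, against 5.95% and 3.99% of all genes. Of these list genes, 4 and 1 passed whichever array was left out, and 1 was called, the striatal Gpr6 given above. The kinase Gsk3b had a mean of 0.31, 0.26 and 0.42 with CMS and of -0.16, -0.19 and -0.44 in controls (log2 fold change 0.59, adjusted p = 0.0174, and up to 0.0629 with 1 array left out), and its 6 probe sets ran from -0.40 to 1.98 with 2 called higher and 1 lower at an adjusted p under 0.05. Cbln1, a secreted organizer of synapses, was at 0.18, 0.27 and 0.36 against 1.20, 1.22 and 1.13 (log2 fold change -0.92, adjusted p = 0.00175), and 1 of its 3 probe sets was called lower. Smarca4 at 0.09 (SE 0.10) and Nrp1 at 0.06 (SE 0.04) did not pass the test.

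**Figure D4:**
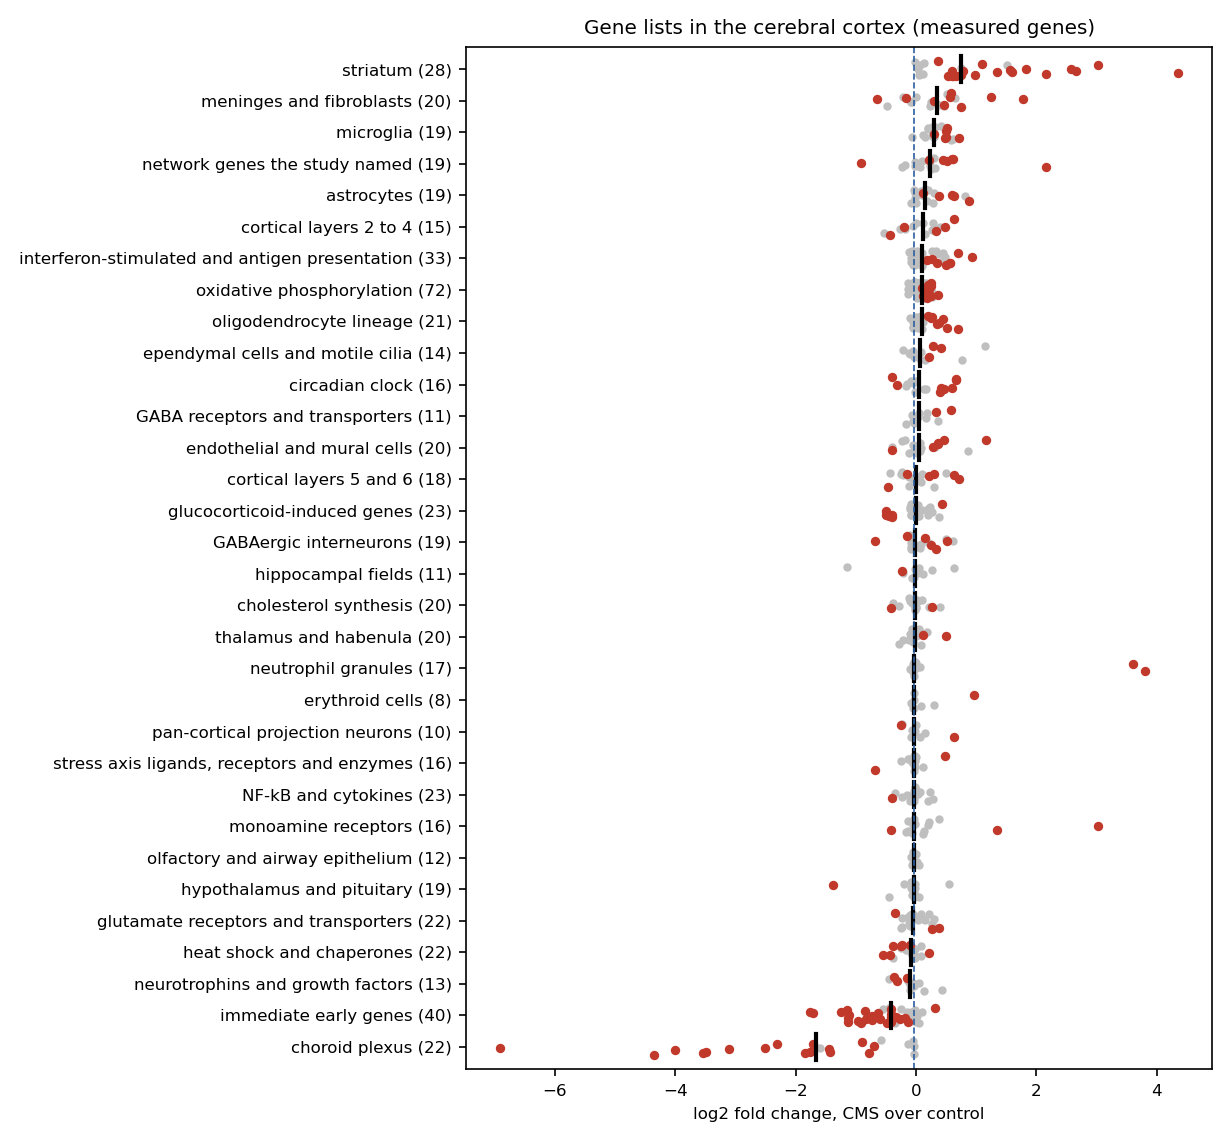
Log2 fold change of CMS over control in the cerebral cortex for every measured gene of 32 lists, with the number of genes in parentheses, red points for an adjusted p under 0.05, grey points for the others, a black bar at the list median and a dashed line at the median of all genes (-0.03). The choroid plexus median lies at -1.66, that of immediate early genes at -0.41 and that of the striatum at 0.75, and most other medians lie within 0.2 of 0.

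Of the 65 called genes, 29 were in no list. Ido1, which starts the breakdown of tryptophan to kynurenine, was at -0.84, -1.27 and -0.92 on the CMS arrays and at -3.20, -2.997 and -3.29 on the control arrays (log2 fold change 2.15, SE 0.14, adjusted p = 0.00223). Zfp551, a zinc finger gene, rose from -0.06, 0.06 and -0.02 to 1.70, 1.76 and 1.95. Psg28, of the pregnancy-specific glycoproteins, rose from -0.01, -0.13 and -0.03 to 1.83, 2.08 and 2.38, and belongs to a family of similar genes that share sequence, so its identity is uncertain. Gm13306, a predicted gene, was at 2.75, 2.49 and 2.49 against -0.44, 0.64 and 0.02. Each of these 4 genes was measured by 1 probe set and kept its call without any 1 array.

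At the level of probe sets, 504 of 45037 were called (1.12%), 394 higher (0.875%) and 110 lower (0.244%), and 9.15% passed an adjusted p under 0.05 alone, 5.49% of all as higher and 3.67% as lower. Without control replicate 3, 300 were called higher and 129 lower. The larger share of increases did not carry over to genes, since most increases rested on 1 probe set of several. A probe set called higher was found for 264 genes with 1 symbol, 239 of which had more than 1 probe set, and in 208 of these 239 only 1 of them was called. The median log2 fold change of the probe sets of these genes that were not called was 0.02, and in 33 of the 264 genes the mean was called. A probe set called lower was found for 57 genes, 38 of them with several probe sets, 31 of the 38 with only 1 called, and 29 of the 57 called as a mean. In Slc1a2, the main glutamate transporter of astrocytes, 5 probe sets ran from -0.03 to 1.97, and in Mef2c 5 ran from -0.06 to 1.29. The β-actin control probe sets, as given above, also differed more at the 5′ end than at the 3′ end, by 1.495 against 0.89 on the log2 scale. Where in a transcript the probe sets of other genes lie was not tested. Of the probe sets called lower, 44 of 110 (40.0%) had no gene symbol, against 20.3% of those tested and 23.4% of those called higher.

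The CMS effect in the cerebral cortex was then set against that in the prefrontal cortex, the other cortical area, in a fit of all 24 arrays. The 2 areas have control arrays of their own. The effects differed at an adjusted p under 0.05 and by over 1 on the log2 scale in 101 genes (0.555%), 55 higher (0.302%) and 46 lower (0.253%) in the cerebral cortex, or 40 and 49 without control replicate 3. Of the 65 genes called in the cerebral cortex, 41 were among them, 24 of the 35 that rose and 17 of the 30 that fell.

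Of the 5 largest upward differences, 4 were in striatal genes, and 15 of the 55 genes were on the striatum list. The log2 fold change of Lrrc10b was 4.35 here and -0.33 in the prefrontal cortex, a difference of 4.69 (SE 0.17, limma adjusted p = 2.16e-12). Drd2 differed by 3.55 (SE 0.39), Rxrg by 3.01 (SE 0.39), Syndig1l by 3.00 (SE 0.12) and Ido1 by 2.55 (SE 0.15), each with a log2 fold change below 0 in the prefrontal cortex. Of the 28 striatal genes, 0 differed downwards. The 22 choroid plexus genes had 13 lower in the cerebral cortex and 0 higher, and Kcne2 differed by -3.98 (SE 0.17, adjusted p = 2.12e-11).

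The fall of Ttr was found in both areas, and the study reports one in the amygdala too. Its log2 fold change was -6.91 here and -7.15 in the prefrontal cortex, a difference of 0.24 (SE 0.09, adjusted p = 0.0727) that did not pass. The control prefrontal cortex was at 1.82 ± 0.02 (SD, n = 3) and the CMS prefrontal cortex at -5.33 ± 0.16 in this gene. S100a8 differed by 0.03 (SE 0.39) and S100a9 by 0.41 (SE 0.20), and neither passed the test.

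Immediate early genes fell in both areas as well, and their list mean was lower with CMS in the other areas too. It was -0.16 in control and -0.45 in CMS amygdala, and -0.11 in control and -0.46 in CMS hippocampus. In the prefrontal cortex 23 of 40 were lower and 1 higher at an adjusted p under 0.05, with a median of -0.43, where 8.37% of all genes passed, 3.92% as lower and 4.45% as higher. The difference between the areas passed an adjusted p under 0.05 in 11 of the 40, against 14.4% of all genes (6.37% higher and 7.99% lower in the cerebral cortex), and a size of 1 in Atf3 alone, whose log2 fold change was -2.10 in the prefrontal cortex and -0.07 in the cerebral cortex. Fos had log2 fold changes of -1.13 and -1.25 and a difference of 0.12 (SE 0.07, adjusted p = 0.236), and Arc of -1.71 and -1.20 with a difference of -0.51 (SE 0.14, adjusted p = 0.0289).

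At the lower end were genes that changed in the prefrontal cortex and not in the cerebral cortex. Bpifb9b, of a family of secreted epithelial proteins, was between -0.04 and 0.06 on all 6 cerebral cortex arrays, against a log2 fold change of 6.19 in the prefrontal cortex, a difference of -6.24 (SE 0.03, adjusted p = 5.15e-26). Its relative Bpifb3 differed by -4.54, and the neutrophil granule genes Ngp, Ltf and Camp by -5.32, -4.21 and -4.05. Against the mean effect of the other 3 areas, the cerebral cortex differed in 80 genes (0.44%), 48 higher and 32 lower. These included 43 of its 65 called genes, with Ttr at -3.33 and Lrrc10b at 4.23. For Ttr that mean includes the prefrontal cortex, where the fall was of like size, as given above. It also includes the amygdala, where the study reports a decrease of Ttr.

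**Figure D5:**
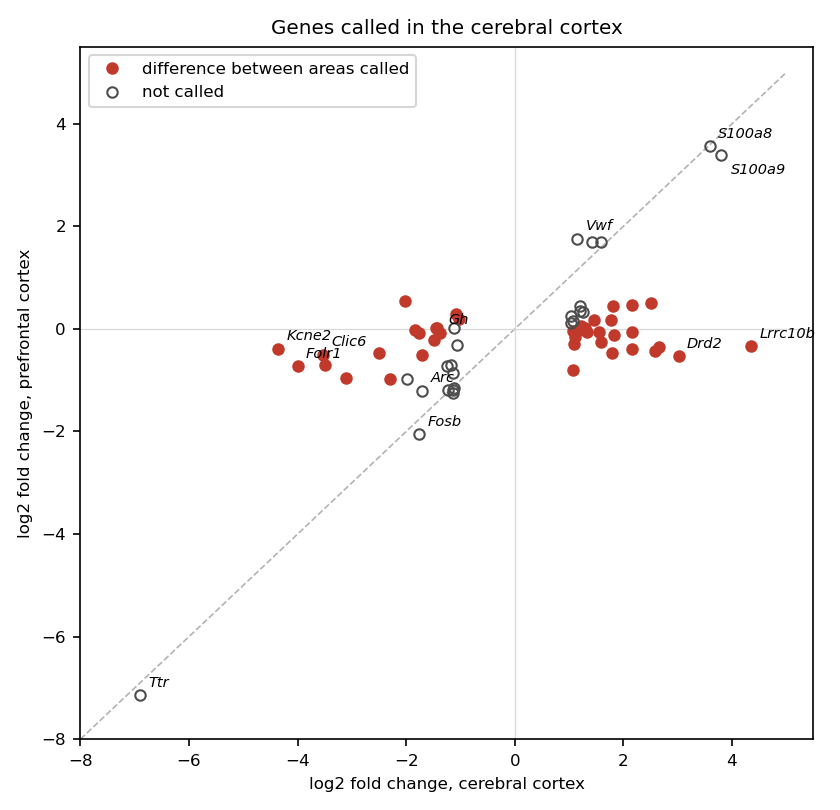
Log2 fold change of CMS over control in the cerebral cortex (horizontal) and the prefrontal cortex (vertical) for the 65 genes called in the cerebral cortex, filled where the difference between the areas was called and open where it was not, with a dashed line where the effects are equal. Ttr, S100a8, S100a9 and most immediate early genes lie near the line, and Kcne2, Folr1, Clic6, Drd2 and Lrrc10b lie far from it, with prefrontal values between -1 and 0.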

How the data were processed

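RNA of 4 brain areas was amplified and labelled as cRNA, per the methods in 2 cycles, and hybridised to Affymetrix mouse genome arrays, with 3 CMS and 3 control arrays per area. The authors summarised the scans with GCRMA in GeneSpring GX (no version stated in the sources used here) and deposited log2 values in which each probe set has a median of 0 over the 24 arrays. The methods call this step a baseline to the mean. Centring removes absolute levels, so that genes cannot be ranked by expression, and a probe set without signal sits near 0. No count or depth exists for arrays, and their number limits the precision.

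Of 45101 probe sets, 64 Affymetrix controls were left out. The platform annotation gave 1 gene symbol to 34945 probe sets, several to 932 and none to 9160, and only the first kind entered the gene means. Groups came from the sample labels. Upper ages differ between the sample descriptions, and age was not used. CMS was compared with control by limma 3.58.1 in R 4.3.3 (lmFit and eBayes, two-sided) on the 6 cerebral cortex arrays, without a block, with Benjamini-Hochberg adjustment over all probe sets or all genes. Differences between areas were contrasts in a limma fit of 8 group means over 24 arrays. With 3 arrays against 3, an exact permutation test cannot go below p = 0.1, so single values were not tested in that way.

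Named genes were, among called genes whose groups do not overlap, the 12 largest changes in each direction, up to 6 called members of each list or else up to 3 with an adjusted p under 0.05, genes the study names, and the 5 largest differences from the prefrontal cortex in each direction. Further list members are named with their values as examples chosen after these were seen. The members and the 32 gene lists (658 of 721 genes measured) were chosen with earlier results of these data known. Alternatives were quantile normalization, median centring, array weights, a trended and robust fit, a filter on the SD, no fold threshold, the most variable probe set per gene, the methods' t-test, the replicate number as a block, a fit of all arrays, and each array left out. The scripts were tested on simulated data, in which 98.5% of 67 genes changed by 1.5 on the log2 scale were called in the cerebral cortex comparison. The simulated noise was independent between genes and had the same spread on every array. It held no array like control replicate 3, so this share may be higher than in the real data.

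Replicate numbers were checked for pairing. The deviations of same-numbered CMS and control arrays from their group means correlated at -0.019, 0.003 and -0.057 across probe sets, so the numbers were not taken to pair mice. No 2 arrays held identical values. Promoter windows came from RefSeq on GRCm38.p6, and motif searches covered the 250 bases before the start site on both strands.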

Additional observations from a re-analysis of the deposited data

Results flagged for a closer look

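The effect of CMS differed between the cerebral cortex and the prefrontal cortex by a contrast in the limma fit of 24 arrays, and the genes with the largest differences in each direction are given here. On the log2 scale, the effect in the cerebral cortex was larger by 4.69 in Lrrc10b, 3.55 in Drd2, 3.01 in Rxrg, 3.00 in Syndig1l and 2.55 in Ido1. The difference was -6.24 in Bpifb9b, -5.32 in Ngp, -4.54 in Bpifb3, -4.21 in Ltf and -4.05 in Camp, in each of which the change lay in the prefrontal cortex.

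The Affymetrix control probe sets, which entered no comparison, held a difference for β-actin in the cerebral cortex. CMS minus control was 1.4951 on the log2 scale for the 5′ and 1.4953 for the middle probe set, and 0.89 for the 3′ probe set, with all 3 CMS arrays above all 3 control arrays in each. The matching values for Gapdh were 0.16 at the 5′ end and 0.00 at the 3′ end.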

How the results depend on the processing

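Of 195 alternative values for the counts and the leading list medians, 176 moved by at most 1.5 times (counts) or 1 SD between arrays (medians), and of 1552 values for named genes 0 reversed, 35 lost their call and 67 gained one. The medians could not move with the methods' t-test, the replicate block, the trended and robust fit or the fit of all arrays. These settings leave the fold changes as they are. When no fold was required, 2472 higher and 1651 lower probe sets passed, and 1083 genes were higher and 726 lower. Array weights gave 210 lower probe sets, and the methods' t-test 261 higher and 64 lower. After the SD filter 66 genes were higher. With the most variable probe set per gene, 227 genes were higher and 48 lower, since the mean no longer dilutes 1 changed probe set. Quantile normalization left 73 genes lower in the cerebral cortex than in the prefrontal cortex. The immediate early median became -0.59 after the SD filter. The striatal median became 0.98 after that filter and 0.91 with the most variable probe set, and the choroid plexus median -1.84 and -2.39, and -1.89 after quantile normalization.

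With the replicate number as a block, 58 probe sets were lower and 266 higher, 29 genes were higher and 23 lower, and 52 of the 65 called genes were kept, although the numbers were not found to pair the arrays. Leaving out 1 array gave 300 to 354 higher and 72 to 129 lower probe sets, with the 72 reached without CMS replicate 3. It gave 29 to 38 higher and 23 to 34 lower genes, 40 to 70 higher and 43 to 51 lower in the difference from the prefrontal cortex, and 41 to 61 higher and 32 to 42 lower in the difference from the other areas. The medians ranged from -0.44 to -0.39 for immediate early genes, 0.63 to 0.82 for the striatum and -1.73 to -1.60 for the choroid plexus. At an adjusted p alone, 16 to 24 immediate early genes were lower as each array was left out, 18 after median centring, 17 with the methods' t-test and 16 with the block, where 2.08%, 1.54% and 0.885% of all genes were lower under the last 3. The number of arrays limits these results, and signal over background is not known from centred values.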
